A study of Mus musculus with 4 samples.

Results

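The 37 genes described here encode the enzymes that build the sugar precursor of asparagine-linked glycans and the oligosaccharyltransferase that places it on proteins. They were taken by symbol from a list, which was chosen with earlier results of these data known. All 37 were found among the 31053 genes of the deposited count matrices. They were measured by single-cell RNA sequencing in cells sorted as CD31+/CD45- (an endothelial surface marker present and a blood marker absent) from the aorta-gonad-mesonephros region of mouse embryos at embryonic day 10.5. That region contains the dorsal aorta, where hemogenic endothelium gives rise to blood stem cells. 2 libraries came from wild-type embryos (WT) and 2 from age-matched miR-223-/- embryos (KO), each made with a 10x Genomics 3′ kit, version 3. No treatment or other allele is named for either group. The sources used here do not say how the deletion was made, or whether replicate libraries came from separate embryos, litters or pools. The p-values below therefore reflect differences among these 4 libraries that can be of technical origin.

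Asparagine-linked glycosylation starts on the cytosolic face of the endoplasmic reticulum, on the lipid dolichol phosphate. Dpagt1 attaches the first sugar, Alg13 with Alg14 the next, and Alg1, Alg2 and Alg11 add mannoses from a nucleotide donor. Mpi, Pmm1, Pmm2, Gmppa and Gmppb are listed here for the supply of that donor. The lipid-linked chain is then turned into the lumen, where Alg3, Alg9 and Alg12 add mannoses from the dolichol-linked donor made by Dpm1, Dpm2 and Dpm3, and Alg6, Alg8 and Alg10b add glucoses from the donor made by Alg5. Dolichol itself is supplied and recycled by Dhdds, Srd5a3, Dolk and Dolpp1. The oligosaccharyltransferase moves the finished chain to nascent proteins. Its catalytic subunit is Stt3a, in complexes with Ostc and Krtcap2 that act at the translocon, or Stt3b, in complexes with Tusc3 or Magt1, and both forms share Ddost, Rpn1, Rpn2, Dad1, Ost4 and Tmem258.

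miR-223 is a microRNA best known from myeloid cells, and the study asked how its loss affects the endothelium from which blood arises. Earlier work on zebrafish described the N-glycan gene alg2 as a miR-223 target, which is why the precursor genes are of interest in these mouse cells. The mature sequence, from a RefSeq table with build GRCm38.p6, is shown because its seed, bases 2 to 8 in capitals, sets which transcripts it can pair with. It lies on chromosome X at 96242884 to 96242905, plus strand, inside the annotated gene F630028O10Rik.
miR-223-3p: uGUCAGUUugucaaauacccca
A full match to the seed, AACTGAC, stood in the annotated 3′ UTR of 2 of the 37 genes (5.41%), Alg11 with 2 matches and Dpm2 with 1, against 1081 of 8977 genes with an annotated 3′ UTR and at least 5 CPM in endothelial-like cells (12%). The windows below are from GENCODE M21 transcripts (build GRCm38), on the strand of the gene, with the match in capitals. The Alg11 windows are on chromosome 8 at 22069520 to 22069542 and 22069817 to 22069839, plus strand, and the Dpm2 window is on chromosome 2 at 32572807 to 32572829, plus strand.
Alg11, upstream match: ttttctgaAACTGACcatgtatt
Alg11, downstream match: tgagctggAACTGACctgaaagt
Dpm2: tgatagttAACTGACcctcagtg
Counting also a match to bases 2 to 7 followed by A, the share was 6 of 37 (16.2%) against 1921 of 8977 (21.4%), with Alg9, Ddost, Krtcap2 and Pmm1 added. Alg2 held neither kind of match. The median length of the longest annotated 3′ UTR was 1050 bases for the 37 genes and 1400 bases for all, and a match is a description, not a shown site of action.

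Between 3917 and 11186 cell barcodes per library, with 95158639 to 181682389 unique molecular identifiers (UMIs), left 2296 to 6869 cells per library and 19162 in all after the filters. The median depth was 30200 UMIs per cell in WT replicate 1 and 18237 to 20173 in the other 3 libraries. Pairs of libraries shared 8 to 28 barcodes (0.204% to 0.327% of the smaller library). Clusters were named "-like" from marker genes, and the 37 genes and the related pathway genes were kept out of the clustering. 13 classes held at least 10 cells in every library, and no cluster met the markers of venous endothelium, myeloid cells or hepatocytes. Endothelial-like cells numbered 1714, 5987, 2996 and 5002 in WT replicate 1, WT replicate 2, KO replicate 1 and KO replicate 2, the order of libraries kept in all lists of values below. Their pan-endothelial markers summed to 5401 to 5966 CPM in the 4 libraries, where CPM is a gene's UMIs scaled to a common total of a class's UMIs. A cluster with Hey1 and Unc5b among its leading genes, 5.41% to 9.39% of cells, missed the limit for arterial-like cells, which was set after the clusters were seen, and stayed among other endothelial-like cells. The transcript that spans the miR-223 locus, F630028O10Rik, had 10, 56, 231 and 602 UMIs over all kept cells, the first 2 in WT. A 3′ library does not count the mature microRNA, so this transcript does not check the deletion. KO replicate 1 also stood apart in sex-linked transcripts. Xist, the RNA that silences an X chromosome, had 3 UMIs in the kept cells of that library and 20883 to 34613 in each other library. The Y-linked Ddx3y had 1579 or more in every library. By these transcripts the mix of embryo sexes differed between the libraries, and its part in KO against WT was not tested.

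**Figure D1:**
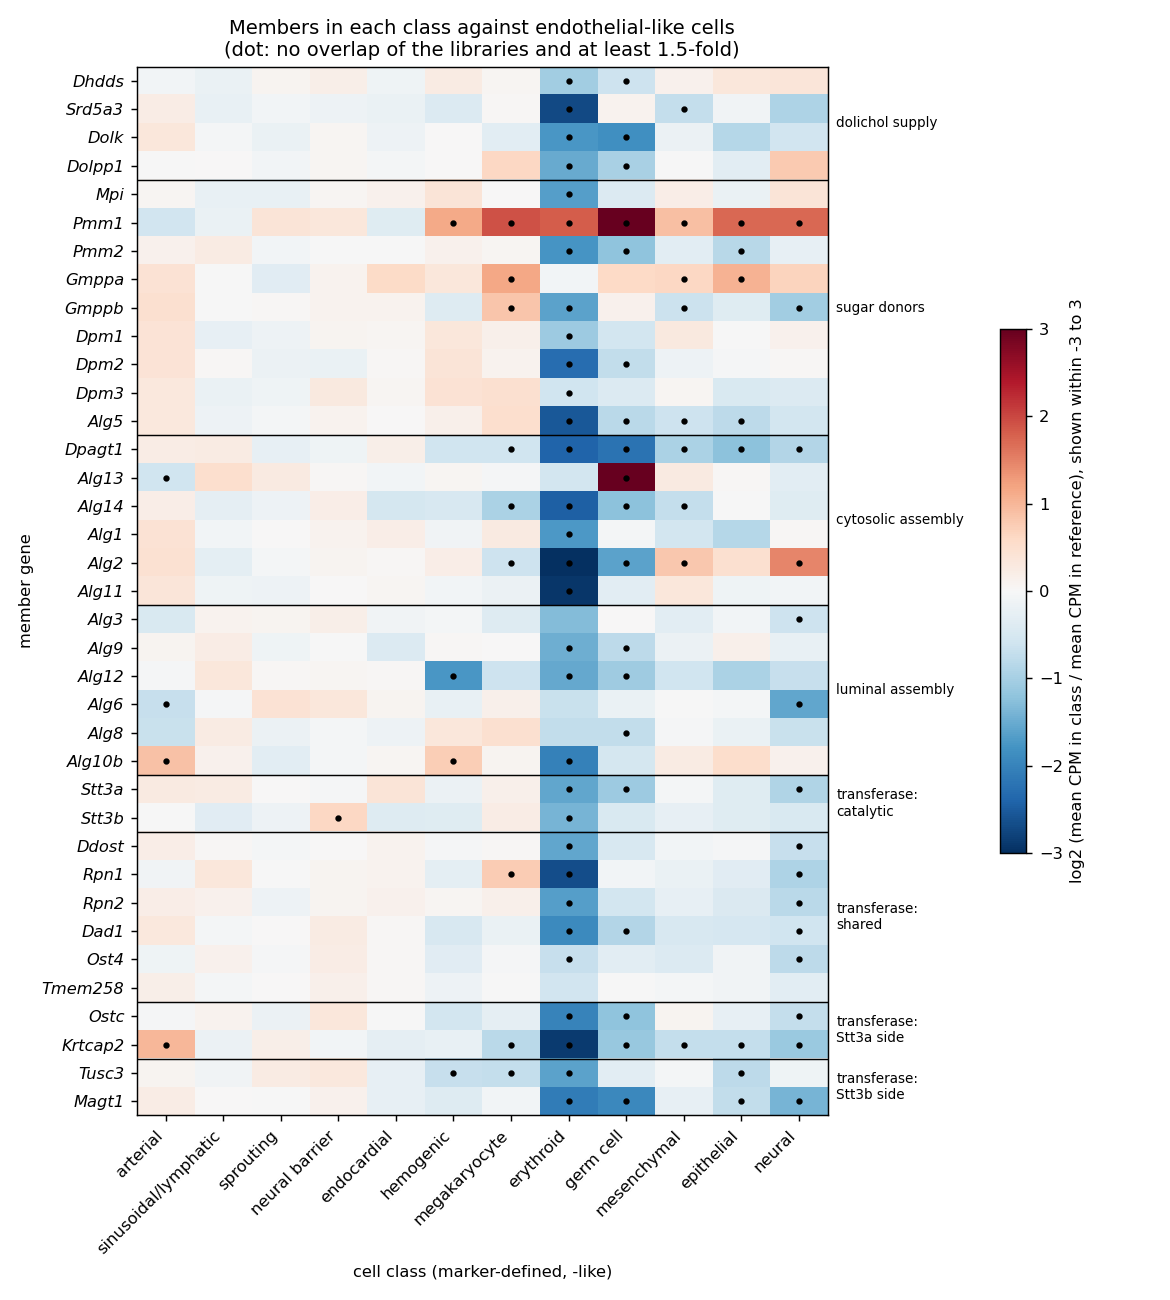
Difference of each of the 37 genes (rows, grouped by role) between 12 marker-defined classes (columns) and their endothelial-like reference, as log2 of the ratio of mean CPM over 4 libraries, shown within -3 to 3. Dots mark genes whose library values do not overlap and differ at least 1.5-fold; Pmm1 is dotted in 7 columns, and the erythroid-like column is lower for 30 genes.

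The sum over the 37 genes differed between classes, and its SD over the 4 libraries of a class ran from 22.8 CPM in endothelial-like to 254.7 CPM in epithelial-like cells, where it was 2616, 2230, 2748 and 2274 CPM. In endothelial-like cells it was 3059, 3090, 3113 and 3096 CPM (mean 3090 ± 22.8, SD, n = 4 libraries). Arterial-like cells had the highest sum, 3768 ± 50.2 CPM, followed by neural barrier endothelial-like cells with 3342 ± 23.6 CPM, and the library ranges of these 3 groups did not overlap. In arterial-like cells the single gene Krtcap2 was at 910.4 CPM, against 456.1 CPM in the other endothelial-like cells, where the sum was 3053 CPM. Of the 37 genes, 25 lay above those cells and 12 below, with a median log2 difference of 0.20 against 0.12 for all genes. Primordial germ cell-like cells had 2472 ± 73.7 CPM, hemogenic endothelial-like cells 2686 ± 66.2 CPM and neural-like cells 2031 ± 136 CPM. Erythroid-like cells had 1059 ± 106 CPM, the lowest sum on totals of all UMIs only. With totals scaled by the trimmed mean of M-values (TMM) they had 2346 CPM, above the 1751 CPM of neural-like and 2095 CPM of epithelial-like cells. With totals that leave out globin, ribosomal protein and mitochondrial genes they had 3165 CPM, above the 2714 CPM of neural-like cells. Both KO sums lay above both WT sums in endothelial-like and endocardial-like cells and below them in sinusoidal or lymphatic-like cells, and the groups overlapped in the other 10 classes. CPM are shares of a class's UMIs, so a lower level can stand for less of the gene or for more of other transcripts. Levels from 3′ counts are compared between classes here, not between genes. Classes are cut from the same counts, so their levels are described without a test: a gene is called higher or lower where the 4 library values lie all above or all below those of the reference and the means differ at least 1.5-fold. The reference is the other endothelial-like cells for endothelial subclasses and all endothelial-like cells for other classes.

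**Figure D2:**
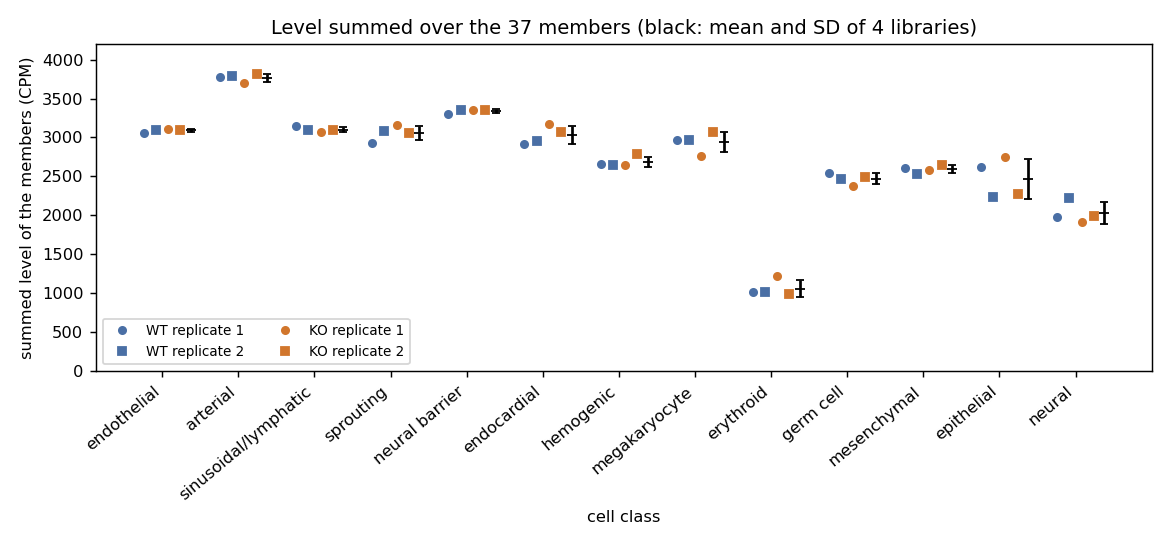
Sum of the 37 genes' CPM (vertical axis) in each cell class (horizontal axis), with a point per library, WT and KO in different colours, and the mean and SD of the 4 libraries in black. Arterial-like cells lie near 3768 CPM, endothelial-like cells near 3090 and erythroid-like cells near 1059; the points are not scaled by TMM, which moves the erythroid-like sum to 2346.

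In primordial germ cell-like cells 2 genes, Pmm1 and Alg13, were many-fold higher and 17 of 37 were lower than in endothelial-like cells, beside 29.2% of 9416 genes higher and 31.5% lower. The median log2 difference was -0.55 for the 37 genes and 0.04 for all genes. Some lower calls were lost in other settings. Dhdds and Alg8 were not called with doublets kept or without KO replicate 1, and Dpm2, Alg8 and Alg12 not under 5% mitochondrial UMIs. Without globin, ribosomal protein and mitochondrial genes in the totals, Dhdds, Alg8 and Alg12 were not called. With thinned cells Dolpp1, Dpm2, Alg12 and Dhdds were not called, Dhdds at a log2 difference of 0.03. Germ cell-like cells numbered 46, 145, 88 and 150, and their germ cell markers, such as Dppa3 and Dnd1, summed to 3841 to 5519 CPM against 20.7 to 25.4 CPM in endothelial-like cells. Epithelial markers, a list that includes Epcam and Cdh1, summed to 229 to 294.4 CPM against 3.788 to 8.824, and erythroid markers ranged from 21.09 to 798.1 CPM over the libraries. Their part in the result was not tested.

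Pmm1 encodes an enzyme that can make mannose-1-phosphate, the base of mannose donors, and enzyme activity was not measured here. The gene lies on chromosome 15 at 81951108 to 81960930, minus strand (GRCm38). Its level in primordial germ cell-like cells was 364.2, 342.3, 338 and 367.3 CPM, against 12.04, 9.69, 14.25 and 10.95 CPM in endothelial-like cells. Every germ cell-like value was above every endothelial-like value, and the log2 difference was 4.91. Pmm1 UMIs were found in 95.65% to 98.86% of germ cell-like cells and 16.55% to 30.81% of endothelial-like cells, at median depths of 36470 to 57500 and 18510 to 30890 UMIs per cell. After each cell was thinned to 5000 UMIs, with 1 to 4 germ cell-like and 9 to 52 endothelial-like cells left out per library, the shares were 77.78% to 83.91% and 4.684% to 6.64%. Pmm2, its paralog and the form mutated in the most common congenital glycosylation disorder, went the other way: 12.27, 12.59, 10.64 and 9.326 CPM against 26.24, 24.39, 27.06 and 25.02 CPM, a log2 difference of -1.20. Carhsp1, which overlaps Pmm2 on the opposite strand, was lower as well, 45.7 to 59.5 CPM against 97.5 to 111. Pmm1 therefore made up 96.92% ± 0.45 (SD, n = 4) of the UMIs of the pair in germ cell-like cells and 31.2% ± 2.53 in endothelial-like cells.

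Alg13 is the catalytic subunit of the enzyme that adds the second sugar, encoded on chromosome X at 144317804 to 144374450, plus strand. Its germ cell-like level was 242, 194.8, 171.8 and 217.3 CPM, against 16.77, 17.41, 15.85 and 16.12 CPM in endothelial-like cells, a log2 difference of 3.64 with no overlap. Alg13 UMIs were in 96.55% to 100% of germ cell-like and 26.81% to 39.15% of endothelial-like cells, and after thinning in 49.43% to 75.56% and 7.022% to 7.919%. Alg14, the membrane anchor without which Alg13 does not work, was lower: 13.01, 17.98, 14.4 and 13.25 CPM against a mean of 34.57 ± 0.74 CPM (log2 difference -1.24). Counts of the genes for these subunits thus differed in opposite directions in the same cells. Counts per gene do not tell apart the transcripts of a gene, so the form of Alg13 that was higher is not known. Alg13 overlaps Gm2214 on the opposite strand, and the part of Gm2214 in the difference was not tested.

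The 17 lower genes in germ cell-like cells included Dpagt1, which starts the chain. It was at 11.15, 8.5, 11.27 and 7.69 CPM against 48.95, 36.89, 52.19 and 42.29 CPM (log2 difference -2.22), with every germ cell-like library below every endothelial-like one. Dolk, the kinase that makes dolichol phosphate, averaged 3.99 ± 1.05 CPM against 14.2 ± 1.51. Alg2, the mannosyltransferase, averaged 4.05 ± 0.97 CPM against 12.4 ± 1.03 (log2 difference -1.61), on 75 UMIs in all 4 libraries. In the transferase, Magt1 was at 28.99, 30.73, 22.22 and 25.03 CPM against 92.56, 108.5, 107 and 102.2 CPM (log2 difference -1.94). Ostc averaged 143 ± 2.83 CPM against 332 ± 13.1, Krtcap2 216 ± 20.5 against 479 ± 40.6, Stt3a 30.6 ± 2.03 against 65.5 ± 6.65 and Dad1 222 ± 4.71 against 406 ± 7.24. By role, the sugar donor genes summed to 535 ± 12.6 CPM in germ cell-like and 275.3 ± 5.92 CPM in endothelial-like cells, a sum that Pmm1 dominates. The Stt3a-side subunits summed to 359 ± 18.3 against 812 ± 44.2 CPM, and the Stt3b-side subunits to 80.9 ± 10 against 170.1 ± 7.24 CPM.

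Of the related lists, translocon and signal peptidase genes were also mostly lower in germ cell-like cells: 12 of 17 lower and 1, Sec61a2, higher, with a median log2 difference of -0.77. Endoplasmic reticulum chaperones and unfolded protein response genes were lower for 12 of 19 measured, median -0.83, among them the transcription factor Xbp1, 14.7 ± 1.54 against 110 ± 7.12 CPM. In the supply of amino sugars and mannose, Gnpnat1 was at 111 ± 5.27 against 33.6 ± 2.04 CPM and Hk2 at 21.9 ± 3.89 against 5.24 ± 0.70, while Ugp2 was at 18.1 ± 3.62 against 63.1 ± 4.89 CPM.

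**Figure D3:**
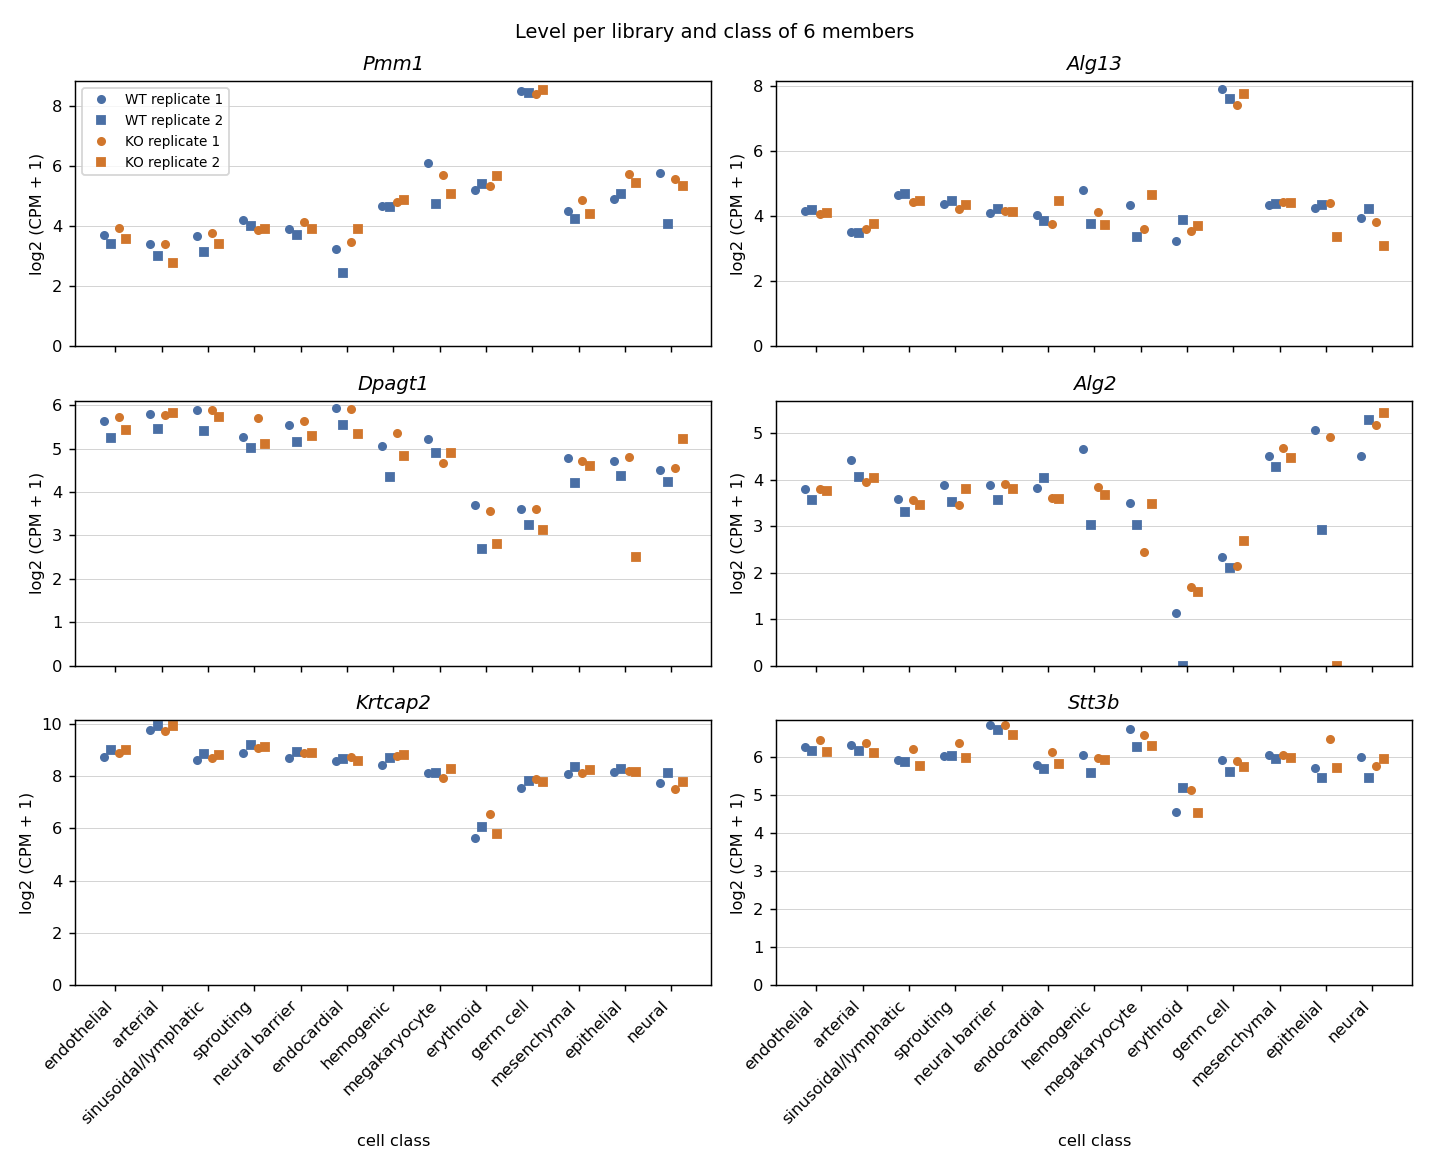
Level of 6 genes per library, as log2 (CPM + 1), by cell class, with WT and KO libraries in different colours. Pmm1 and Alg13 peak in primordial germ cell-like cells, where Dpagt1 and Alg2 are low; Krtcap2 peaks in arterial-like cells and Stt3b in neural barrier endothelial-like cells.

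Arterial-like cells had 2 genes higher, Krtcap2 and Alg10b, and 2 lower, Alg6 and Alg13, of 37, beside 20.9% of 9432 genes higher and 12% lower. They numbered 94, 535, 289 and 440, with arterial markers such as Gja4 and Hey1 at 2867 to 3321 CPM in sum against 456.4 to 504.9 in all endothelial-like cells. Neural markers, Sox10 and Dcx among those at 0, summed to 703.6 to 1015 CPM against 116.9 to 160.8, and endocardial markers to 195.2 to 220.4 CPM against 47.94 to 54.61. Their part in the result was not tested. Krtcap2, a small subunit of the Stt3a complex, is on chromosome 3 at 89245966 to 89249906, plus strand. It was at 862.8, 972.4, 850.8 and 955.7 CPM against 411.3, 491.1, 443.9 and 478.1 CPM in other endothelial-like cells, a log2 difference of 0.997 with all 4 arterial-like values above. Ostc, the other Stt3a-side subunit, did not differ in this way: 313.5 to 344.5 CPM against 321 to 351.2. Krtcap2 overlaps Trim46 on the opposite strand. Trim46 was at 10.5 to 17 CPM in arterial-like and 1.42 to 2.09 CPM in endothelial-like cells. Its part in the Krtcap2 difference was not tested. Whether reads were counted by strand is not stated in the labels or headers.

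Alg10b, which adds the last glucose that the transferase recognises, was at 38.28, 39.35, 35.06 and 34.93 CPM in arterial-like cells against 20.67, 20.98, 18.79 and 20.35 CPM, a log2 difference of 0.87. Alg6, which adds the first of those glucoses, went the other way, 9.571, 10.07, 12.12 and 11.37 CPM against a mean of 17.5 ± 1.51 (log2 difference -0.70). Alg13 was at 10.5 to 12.5 CPM against 16.1 to 17.8 CPM (log2 difference -0.59). Counts of the genes for the start and the end of glucose addition thus differed in opposite directions in arterial-like cells. With TMM scaling, which moved the median of all genes by -0.10, 4 genes were lower in place of 2. Without WT replicate 1, and likewise without WT replicate 2, Alg13 was no longer called.

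In neural barrier endothelial-like cells, named from markers of barrier vessels such as Foxq1 and Slc2a1, 1 gene was higher, Stt3b, and 0 were lower, beside 4.13% of 9119 genes higher and 3.08% lower. Stt3b was at 112.4, 102.9, 113.8 and 94.57 CPM against 68.59, 63.1, 79.38 and 62.6 CPM in other endothelial-like cells (log2 difference 0.63). Its partner subunits Tusc3 and Magt1 were not called. No gene of the 37 was called in sinusoidal or lymphatic-like cells (4.87% of 9011 genes higher and 9.62% lower), sprouting-like cells (2.73% and 3.29% of 9056) or endocardial-like cells (5.92% and 5.92% of 9241).

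In hemogenic endothelial-like cells, the class next to blood formation, 2 genes were higher, Pmm1 and Alg10b, and 2 lower, Alg12 and Tusc3, beside 14.5% of 9431 genes higher and 13% lower. The class was small, 11, 74, 130 and 77 cells, and its markers, such as Runx1 and Gfi1, summed to 1100 to 1304 CPM against 32.81 to 36.76. Its marker list covers hemogenic endothelium and early blood together. Spi1, Lyz2 and Myb were among its leading genes, and early blood cells in it were not told apart from endothelium. Mesenchymal markers stood at 261.9 CPM in WT replicate 1 and at 12.6 to 29.01 in the others, myeloid markers at 164.7 to 489.7 CPM, and epithelial markers, with 4 of 9 at 0, at 96.16 to 123 CPM. Their part in the results was not tested. The calls moved with the processing: TMM scaling left 1 gene higher (Pmm1) and gave 7 lower, without Alg12, and cells thinned to 5000 UMIs gave 4 higher. With doublets kept Tusc3 was no longer called and 1 gene was lower. Alg12 was also not called without KO replicate 1 or without KO replicate 2, while Pmm1 was called in all of these settings. Pmm1 was at 24.3, 24, 26.67 and 28.51 CPM against 9.69 to 14.25 in endothelial-like cells (log2 difference 1.14). Alg10b was at 29.7, 38.99, 33.68 and 37.46 CPM against a mean of 21.1 ± 0.93 (log2 difference 0.73), the second class after arterial-like cells in which it was called. Tusc3, a subunit of the Stt3b complex, was at 45.9, 35.4, 45.35 and 40.25 CPM against 67.6 ± 2.71.

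Alg12, a luminal mannosyltransferase, had 0, 5, 9 and 6 UMIs in hemogenic endothelial-like cells, or 0, 3, 3.001 and 3.354 CPM. All 4 values, on 20 UMIs, were below those of endothelial-like cells, 8.336, 6.658, 8.794 and 7.657 CPM. The count of 0 in WT replicate 1, a library with 11 cells of the class, allows up to 3 UMIs, or 8.1 CPM, which lies within the endothelial-like values, so a difference was not detectable in that library at this depth. Its promoter was the only one of 31 matched in the RefSeq table of promoters (250 bases before to 50 after the start) to hold the endoplasmic reticulum stress element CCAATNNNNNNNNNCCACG on either strand, 3.23% against 13 of 7208 genes (0.18%). The element is shown because the factors of the unfolded protein response bind it. It lies on chromosome 15 at 88819520 to 88819538 (GRCm38.p6), 220 bases before the start site, in the direction of the gene, with its outer parts in capitals.
Alg12 promoter element: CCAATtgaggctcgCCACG
Endoplasmic reticulum chaperones and unfolded protein response genes were lower in hemogenic endothelial-like cells for 12 of 19 measured and higher for 1, Dnajb9, with a median log2 difference of -0.66. Hspa5, the main chaperone of the lumen, was at 298 ± 18.8 CPM against 603 ± 40.5, Hsp90b1 at 463 ± 63.2 against 883 ± 94, and Xbp1 at 38.4 ± 8.96 against 110 ± 7.12 CPM. A match in a promoter is a description and says nothing of whether a factor bound it. The part CCACG alone stood in 18 of the 31 promoters (58.1%) against 54.3% of 7208 genes, and CCAAT in 17 (54.8%) against 43.3%. The search was added after the data were seen, the full element was met in 1 of the 31, and its part in the Alg12 level was not tested.

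Pmm1 and Krtcap2 were each called in 7 classes, more than any other of the 37 genes. Krtcap2 was higher in arterial-like cells and lower in the other 6 classes. Pmm1 was higher than in endothelial-like cells in 7 of the 7 classes outside the endothelial-like cells, which include the hemogenic endothelial-like class. These 7 comparisons share the same endothelial-like reference, so they are not separate observations. The share of all genes called in as many classes was not counted. Pmm1 was no longer called in erythroid-like cells thinned to 5000 UMIs (log2 difference 1.54), nor in neural-like cells with thinned cells (1.52), with doublets kept (1.60) or with TMM scaling (1.52). Its mean was 44.2 ± 18.7 CPM in megakaryocyte-like, 41.4 CPM in erythroid-like, 38.9 ± 10.2 in epithelial-like, 38.7 ± 16.4 in neural-like and 21.9 ± 4.43 in mesenchymal-like cells, beside 11.7 ± 1.93 in endothelial-like cells. Megakaryocyte-like values were 67.27, 25.7, 51.03 and 32.91 CPM and neural-like values 53.27, 15.63, 46.79 and 39.12 CPM, so the libraries spread widely, with both replicate-1 libraries high. Pmm1 shares of the Pmm1 and Pmm2 UMIs ran from 21.93% ± 3.57 in arterial-like cells through 47.95% ± 3.35 in hemogenic endothelial-like, 60.64% ± 7.87 in megakaryocyte-like and 85% ± 6.05 in erythroid-like to 96.92% ± 0.45 in germ cell-like cells. Neighbours in this order, such as mesenchymal-like cells at 51.18% ± 6.18 and hemogenic endothelial-like cells, overlapped.

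Megakaryocyte-like cells, platelet precursors with 30, 25, 16 and 44 cells, had 4 genes higher and 5 lower, beside 17.2% of 9304 genes higher and 22.7% lower. Gmppa and Gmppb, the regulatory and catalytic parts of the enzyme that makes the mannose nucleotide, were both higher: 12.7 ± 2.60 against 5.72 ± 0.81 CPM and 40.2 ± 4.79 against 22.6 ± 1.69 CPM. With Pmm1 and Rpn1 (175 ± 17.4 against 103 ± 1.82 CPM) they made up the higher genes. The lower genes were Alg14, Krtcap2, Tusc3, Alg2 and Dpagt1, at log2 differences of -0.94 to -0.61. Without KO replicate 1, Alg2 and Dpagt1 were not called and 3 were lower, and with thinned cells neither Rpn1 nor Alg2 was called. Myeloid markers, with 2 of 8 at 0, summed to 204.7 to 691.7 CPM in this class against 6.996 to 9.52 in endothelial-like cells, and erythroid markers to 485.2 to 1806 CPM against 47.69 to 163.2. Their part in the result was not tested.

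Erythroid-like cells had 30 of 37 genes lower and Pmm1 higher, beside 75.1% of 8419 genes lower and 5.07% higher. Their UMIs are dominated by globins, and the classes differ between replicates: 46, 13, 70 and 19 cells, from a cluster found mainly in replicate-1 libraries and another found in replicate-2 libraries. TMM scaling moved the median of all genes by 1.18 in this class, and 12 genes were then called lower. Without globin, ribosomal protein and mitochondrial genes in the totals, 13 were. Pmm1 stayed higher under both, with log2 differences of 2.96 and 2.92 in place of 1.82, but 0 genes were called higher with cells thinned to 5000 UMIs.

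Mesenchymal-like cells had 3 genes higher and 6 lower, beside 20.4% of 9607 genes higher and 16.2% lower. Hepatocyte markers summed to 847.9 CPM in KO replicate 2 and to 2.474 to 4.236 in the other libraries, and megakaryocyte markers to 103.1 against 7.238 to 27.2 CPM. Without KO replicate 2, 3 genes were higher and 7 lower, among them all 9 called over the 4 libraries. Gmppa, higher beside Pmm1 and Alg2, was not called with TMM scaling, thinned cells, doublets kept or under 5% mitochondrial UMIs. Alg2 was among the higher: 21.93, 18.28, 24.83 and 21.04 CPM against 13, 10.85, 13.01 and 12.57 CPM in endothelial-like cells (log2 difference 0.80). Neural-like cells had 2 higher and 13 lower, beside 25.1% of 9903 genes higher and 19.2% lower, and Alg2 was again higher, 21.79, 37.97, 35.09 and 42.13 CPM (log2 difference 1.47, on 102 UMIs), though not with thinned cells (0.90). Epithelial markers summed to 108.2 to 332.8 CPM in neural-like cells. Epithelial-like cells, the shallowest class with 20 to 55 cells per library, had Pmm1 and Gmppa higher and 6 lower, beside 11.9% of 9607 genes higher and 15.9% lower. TMM scaling gave 10 lower, and Gmppa was not called with thinned cells. Hepatocyte markers summed to 284.1 CPM in WT replicate 2 against 4.52 to 10.92 in the others, megakaryocyte markers to 134.6 CPM in KO replicate 2 against 3.265 to 6.78, and mesenchymal markers to 254.7 to 311.9 CPM in all 4. The part of these markers in the 3 classes was not tested. Dpagt1 was lower in each of these 3 classes, at log2 differences of -0.96, -0.87 and -1.23, and Krtcap2 at -0.71, -1.11 and -0.71. Dpagt1 was not called in neural-like cells with thinned cells or doublets kept, and Krtcap2 not in mesenchymal-like or epithelial-like cells under 5% mitochondrial UMIs. Among the classes in which Alg2 was called and the endothelial-like cells, its level ranked neural-like, mesenchymal-like, endothelial-like, megakaryocyte-like (8.01 ± 2.78 CPM), germ cell-like and erythroid-like (1.36 ± 1.01 CPM, on 8 UMIs) from high to low, with the megakaryocyte-like range of 4.438 to 10.35 CPM overlapping that of germ cell-like cells.

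The form of the transferase also differed between classes in its UMI shares. Stt3a made up 46.63% ± 1.48 (SD, n = 4) of Stt3a and Stt3b UMIs in endothelial-like cells, 59.65% ± 1.98 in endocardial-like, 55.95% ± 2.84 in sinusoidal or lymphatic-like, 37.54% ± 1.56 in neural barrier endothelial-like and 36.1% ± 1.30 in germ cell-like cells. The last pair overlapped, and both lay below all endothelial-like values of 45.4% to 48.48%. Tusc3 made up 39.77% ± 2.13 of Tusc3 and Magt1 UMIs in endothelial-like cells and 59.16%, 64.33%, 75.93% and 66.3% in germ cell-like cells, where Magt1 was low. It was 30.34% ± 4.66 in megakaryocyte-like and 62.67% ± 13.2 in neural-like cells. These are shares of transcripts counted at their 3′ ends and not ratios of proteins. KO and WT shares were compared by a two-sided exact permutation test in every class for 3 pairs, and no p was below 0.33, the smallest that 2 against 2 libraries allow.

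**Figure D4:**
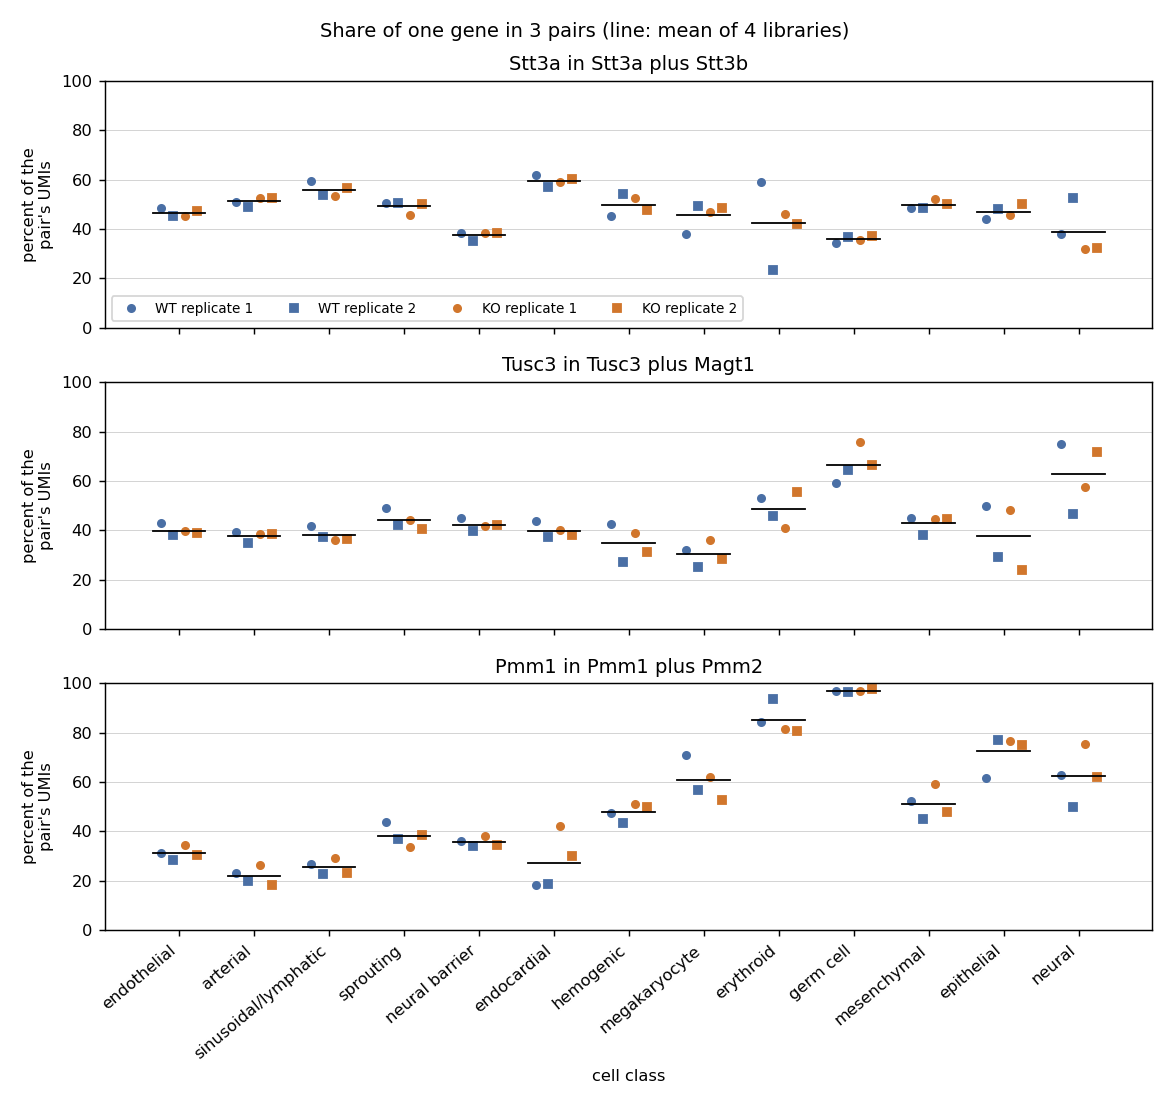
Share of Stt3a, Tusc3 and Pmm1 in the UMIs of their pair (percent, vertical axes) by cell class, with a point per library and a line at the mean of 4 libraries. Germ cell-like cells combine a Stt3a share near 36.1%, a Tusc3 share near 66.43% and a Pmm1 share near 96.92%.

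None of the 37 genes was called in endothelial-like cells, beside 21 genes called in all (0.143%). The test was edgeR's quasi-likelihood test with Benjamini-Hochberg adjustment over 14655 genes. 23 of the 37 had a log2 change above 0 and 14 below, with a median of 0.05 against -0.003 for all genes. Over the 13 classes 430 tests of these genes were made. 0 passed an adjusted p of 0.05, 2 had an unadjusted p under 0.05 (0.465%, against 2.27% of tests over all genes), and DESeq2 called 0. The share of all genes called in the other classes was 0.0362% in arterial-like, 0.0381% in sinusoidal or lymphatic-like, 0.0196% in sprouting-like, 0.0333% in neural barrier endothelial-like, 0.0117% in endocardial-like, 0.0436% in hemogenic endothelial-like, 0% in megakaryocyte-like, 0.105% in erythroid-like, 0.125% in germ cell-like, 0% in mesenchymal-like, 0.0503% in epithelial-like and 0% in neural-like cells. On simulated counts with 14655 genes, the endothelial-like design recovered 8 of 50 genes changed 1.5-fold, 36 of 50 changed 2-fold and 50 of 50 changed 4-fold. In the hemogenic design, with 9171 genes, these were 3, 22 and 48 of 50. Of 50 genes lowered to 0.25-fold, 45 were recovered in the endothelial-like and 38 in the hemogenic design. Among genes simulated without a change, 11 and 6 were called.

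**Figure D5:**
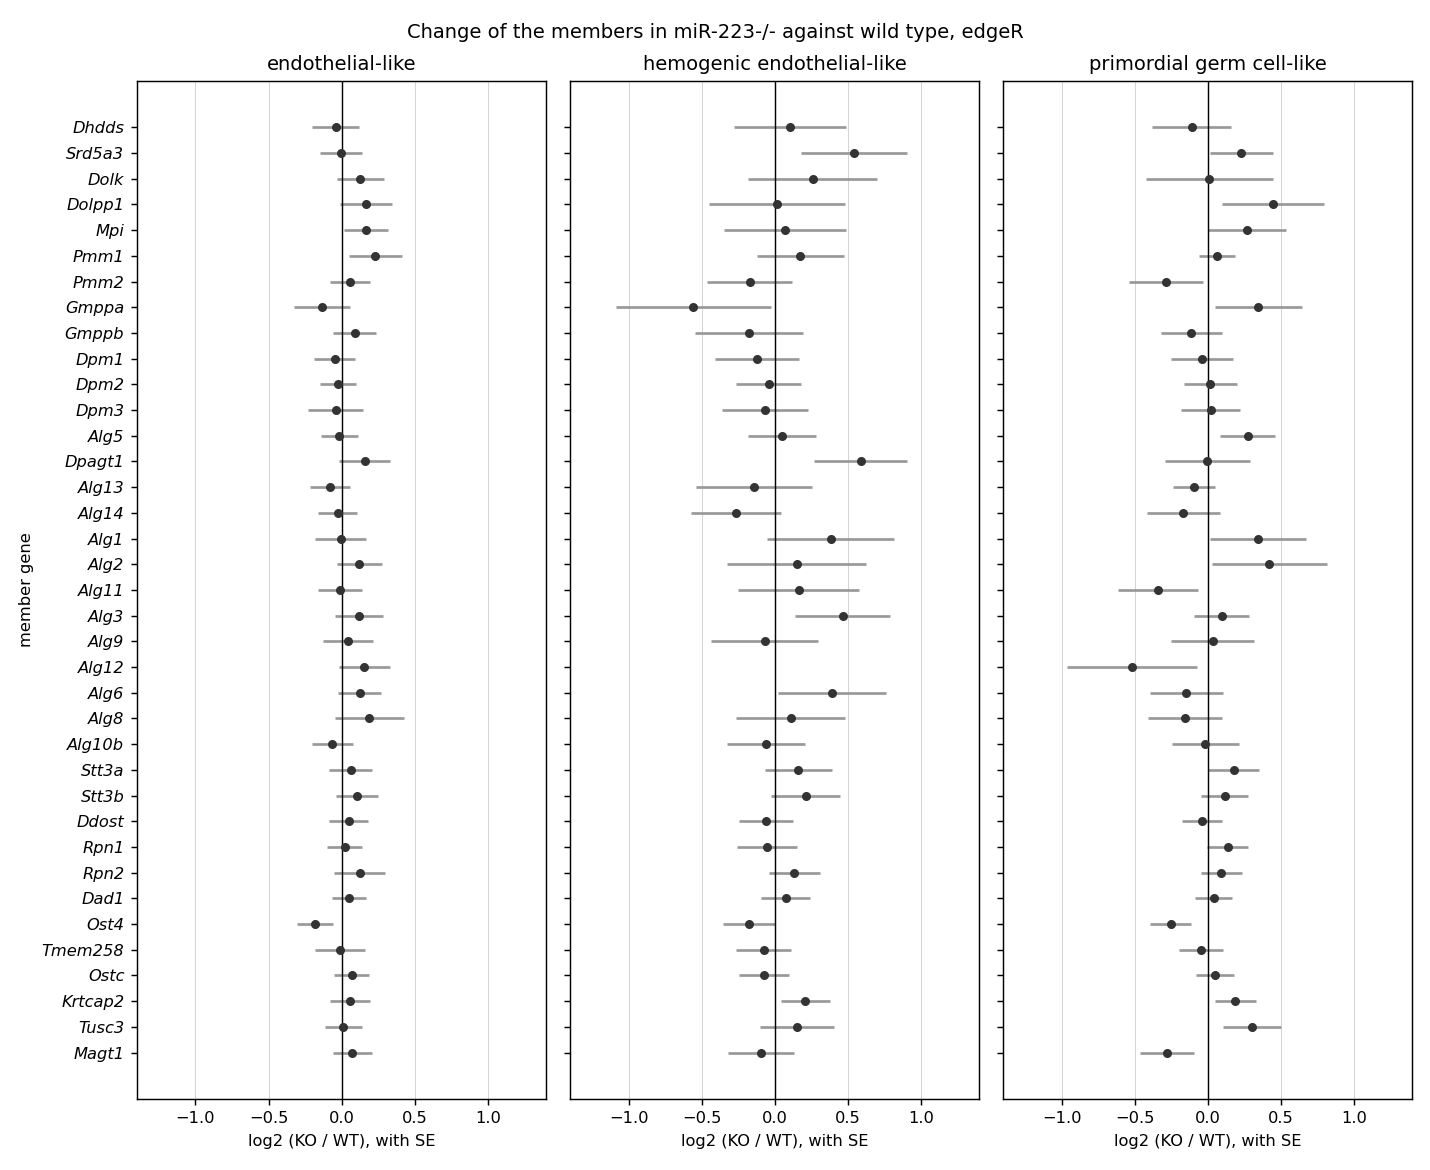
Log2 change in KO against WT with its standard error (horizontal axes) for each of the 37 genes (rows) in endothelial-like, hemogenic endothelial-like and primordial germ cell-like cells, from edgeR. Most bars span 0, and no change passed an adjusted p of 0.05.

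Alg2, the gene described as a target in zebrafish, was at 13 and 10.85 CPM in the WT and 13.01 and 12.57 CPM in the KO endothelial-like libraries, so the groups overlapped. Its log2 change was 0.12 (SE 0.15, edgeR adjusted p = 1) there and 0.15 (SE 0.47, edgeR adjusted p = 1) in hemogenic endothelial-like cells. The genes with a full seed match gave log2 changes of -0.01 for Alg11 and -0.02 for Dpm2 in endothelial-like cells, and of 0.16 and -0.04 in hemogenic endothelial-like cells. Pmm1, which has the shorter match, had a log2 change of 0.23 (SE 0.18, unadjusted p = 0.24 in the edgeR fit) in endothelial-like cells, the smallest unadjusted p among the genes that were higher. Its KO values of 14.25 and 10.95 CPM overlapped the WT values of 12.04 and 9.69 CPM.

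Ost4, a small subunit that holds the transferase together, had the smallest unadjusted p of all 37 in endothelial-like cells. It was at 299.4 and 293.4 CPM in WT and 243.6 and 274 CPM in KO, both KO values below both WT values, with Agbl5, which overlaps it on the opposite strand, at 1.92 to 2.69 CPM. The log2 change was -0.18 (SE 0.12, unadjusted p = 0.18 in the edgeR fit). Over the 13 classes its log2 change ran from -0.35 to -0.08, with a median of -0.18. The classes come from the same 4 libraries and do not repeat the comparison. Without a fold limit, 5 of 37 genes had both KO values below both WT values in endothelial-like cells (Alg10b, Alg13, Alg14, Dpm2 and Ost4), beside 9.77% of 9110 genes, and 1 above (Dad1), beside 4.67%. Alg13 and Magt1, which are on the X chromosome, were at 15.85 and 107 CPM in KO replicate 1, the library without Xist, against 16.12 to 17.41 and 92.56 to 108.5 CPM in the other libraries.

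The 3 genes with the smallest unadjusted p in each direction were also read in the other classes, as values that did not pass. In hemogenic endothelial-like cells these were Dpagt1 at 0.59 (SE 0.32), Srd5a3 at 0.54 (SE 0.36) and Alg3 at 0.47 (SE 0.32) on the log2 scale, and Ost4, Gmppa and Alg14 at -0.18, -0.56 and -0.27. Alg12 was too low there to be tested. In germ cell-like cells they were Tusc3 at 0.30, Alg5 at 0.27 and Krtcap2 at 0.19, and Ost4, Magt1 and Alg11 at -0.25, -0.28 and -0.34. Endocardial-like cells held both tests with an unadjusted p under 0.05: Alg11 at -0.98 (SE 0.39) and Dolk at 1.07 (SE 0.48), each with an edgeR adjusted p of 0.999. That class had 31 to 127 cells per library. In arterial-like cells the values with the smallest p were 0.40 for Mpi and -0.50 for Gmppa, and in mesenchymal-like cells 0.52 for Dolpp1. The median SE of the 37 genes ran from 0.148 in endothelial-like to 0.422 in epithelial-like cells.

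Whether the KO change differed between a class and endothelial-like cells was tested as an interaction in edgeR for 7 classes and 12595 genes. None of the 37 genes passed in any of them, beside 0 to 3 of the 12595 genes called per class. Of the 37, Mpi in erythroid-like cells had the smallest unadjusted p, 0.0097 in the edgeR fit, with a difference of 2.50 (SE 0.91). The smallest edgeR adjusted p was 0.933, for Dhdds in megakaryocyte-like cells, with a difference of -0.86 (SE 0.39). None of the genes of the 6 related lists was called in endothelial-like cells by edgeR, and the lists' median log2 changes lay between -0.04 and 0.07.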

How the data were processed

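Raw counts of UMIs per gene and cell barcode were deposited, made with Cell Ranger (version 3.1.0, per the file headers); Seurat 4 is also named per the submitters' processing notes. The genome build, annotation and strand setting are not stated in the labels or headers. Barcodes under 1000 genes or with 10% or more mitochondrial UMIs were dropped, and simulated-doublet calls (90 to 841 per library, at 0.8% per 1000 barcodes) were removed. 40 principal components of 2000 variable genes, the 37 genes and related lists left out, gave 31 Leiden clusters (resolution 1), named from marker lists. The marker-fold limits (a mean log2 fold of 1.5 in general and 0.6 for endothelial subclasses), the minimum of 20 cells per named cluster and the 9 pan-endothelial markers required were set after the clusters were seen.

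Counts were summed per library and class. KO was compared with WT in edgeR 4.0.16 (filterByExpr, TMM, robust quasi-likelihood, Benjamini-Hochberg over all genes tested, threshold 0.05), checked on simulated counts; DESeq2 1.42.0 was an alternative. Levels between classes were described at a mean of at least 5 CPM, with no test. The members, lists and the genes named were chosen with earlier results of these data known. The named genes are, per class, the 3 with the smallest p in each direction for KO, up to 6 in each direction between classes, and 16 genes named whatever their values, Alg2 among them. The shares of Pmm1 in the pair, shares of cells with a UMI, the match followed by A and the promoter motif were added after the data were seen. Alternatives were another scaling, filter, doublet and mitochondrial setting, thinning, clustering, a replicate block and leaving out each library. Intervals cover counting error only.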

Additional observations from a re-analysis of the deposited data

How the results depend on the processing

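In KO against WT, no setting called any of the 37 genes in any class: 0 were called in all 139 combinations of class and setting, the fit with the replicate number as a block included. WT and KO libraries share replicate numbers, and same-numbered libraries deviated together (r = 0.33), but with 2 pairs this does not establish pairing. The block gave 71 called genes over all genes in endothelial-like cells in place of 21, and 6 to 73 in the other classes. Over all settings the count for all genes ran from 4 to 96 in endothelial-like, 3 to 54 in arterial-like, 2 to 30 in sinusoidal or lymphatic-like, 2 to 37 in sprouting-like, 3 to 73 in neural barrier endothelial-like, 0 to 116 in endocardial-like, 1 to 53 in hemogenic endothelial-like, 0 to 15 in megakaryocyte-like, 0 to 54 in erythroid-like, 9 to 51 in germ cell-like, 0 to 57 in mesenchymal-like, 0 to 60 in epithelial-like and 0 to 93 in neural-like cells. The median log2 change of the 37 genes in endothelial-like cells ran from -0.015 to 0.10. 35 of 968 log2 changes of single genes, none of them called, had the opposite sign. With under 5% mitochondrial UMIs these were -0.0099 for Tusc3 and 0.010 for Alg14 in endothelial-like cells, 0.054 for Dpm1 in neural barrier endothelial-like and -0.044 for Dolpp1 in megakaryocyte-like cells. With sums thinned to equal depth it was 0.065 for Gmppa in mesenchymal-like cells. Leaving out each library in turn gave ranges in endothelial-like cells of -0.057 to 0.0020 for Alg14, -0.049 to 0.15 for Ddost, -0.015 to 0.36 for Dolpp1, -0.027 to 0.36 for Dpagt1, -0.33 to 0.078 for Gmppa, -0.080 to 0.21 for Krtcap2, -0.047 to 0.20 for Magt1, -0.011 to 0.053 for Rpn1, -0.076 to 0.36 for Rpn2, -0.062 to 0.19 for Stt3a, -0.054 to 0.26 for Stt3b and -0.045 to 0.073 for Tusc3. In other classes the ranges were -0.40 to 0.16 for Alg14 in hemogenic endothelial-like, -0.025 to 0.73 for Alg8 and -0.058 to 0.39 for Dpagt1 in sinusoidal or lymphatic-like, -0.0076 to 0.58 for Dpagt1 in sprouting-like, -0.19 to 0.0057 for Dpm2, -0.39 to 0.062 for Gmppa and -0.25 to 0.042 for Ost4 in mesenchymal-like, -0.11 to 0.48 for Krtcap2 in erythroid-like, and -0.30 to 0.024 for Ost4 and -0.37 to 0.17 for Tmem258 in epithelial-like cells.

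Between classes, counts of genes called moved with the scaling; the cause was not tested. With TMM-scaled totals the lower genes numbered 4 in arterial-like, 1 in endocardial-like, 7 in hemogenic endothelial-like, 12 in erythroid-like and 10 in epithelial-like cells, and the higher genes 1 in hemogenic endothelial-like and 1 in neural-like cells. Without globin, ribosomal protein and mitochondrial genes in the totals, 13 were lower in erythroid-like and 1 higher in endocardial-like cells. With cells thinned to 5000 UMIs, 1 was higher in sprouting-like, 4 in hemogenic endothelial-like, 0 in erythroid-like, 1 in epithelial-like and 1 in neural-like cells, and 2 were lower in endocardial-like cells. With doublets kept, 1 was lower in hemogenic endothelial-like and 1 higher in neural-like cells. Leaving out a library gave 0 to 1 higher and 0 to 2 lower in endocardial-like, 1 to 3 lower in hemogenic endothelial-like and 3 to 6 lower in megakaryocyte-like cells.

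The summed level with TMM was 3544 CPM in arterial-like, 3146 in sinusoidal or lymphatic-like, 3314 in neural barrier endothelial-like, 2828 in endocardial-like, 2332 in hemogenic endothelial-like, 2686 in megakaryocyte-like, 2346 in erythroid-like, 2339 in mesenchymal-like, 2095 in epithelial-like and 1751 in neural-like cells. With the totals that leave out globin, ribosomal protein and mitochondrial genes it was 4358 in endothelial-like, 5138 in arterial-like, 4466 in sinusoidal or lymphatic-like, 4273 in sprouting-like, 4674 in neural barrier endothelial-like, 4412 in endocardial-like, 3938 in hemogenic endothelial-like, 4081 in megakaryocyte-like, 3165 in erythroid-like, 3777 in germ cell-like, 3625 in mesenchymal-like, 3502 in epithelial-like and 2714 in neural-like cells. Thinned cells gave 3143 in endothelial-like, 3381 in neural barrier endothelial-like and 2787 in hemogenic endothelial-like cells, kept doublets 2755 in the last of these, and under 5% mitochondrial UMIs 2979, 3071 and 3276 in endothelial-like, sinusoidal or lymphatic-like and neural barrier endothelial-like cells. Thinned cells gave Stt3a shares of 35.96% in neural barrier endothelial-like, 38.53% in megakaryocyte-like, 33.09% in germ cell-like and 48.17% in mesenchymal-like cells. The share was 52.5% in epithelial-like and 54.31% in neural-like cells, the latter from 100%, 54.55%, 24.24% and 38.46%. The fewest UMIs of the pair in a library were 13 in megakaryocyte-like, 21 in germ cell-like, 2 in epithelial-like and 4 in neural-like cells. These shares therefore move with a few UMIs. Tusc3 shares in thinned cells were 35.74% in arterial-like, 35.2% in sinusoidal or lymphatic-like and 75.96% in germ cell-like cells. Under 5% mitochondrial UMIs left too few arterial-like, endocardial-like, hemogenic endothelial-like and neural-like cells, and resolution 0.6 gave no endocardial-like or sprouting-like class. Hemogenic endothelial-like, megakaryocyte-like, erythroid-like, epithelial-like and neural-like cells are limited by 11 to 130 cells per library.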
